A study of Mus musculus with 8 samples.

Results

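The 46 genes described here are the interferon response genes and interferon regulatory factors (IRFs) of the mouse: receptors, transcription factors, sensors, antiviral effectors, and genes of antigen presentation. They were found as every probe set whose platform annotation gives a single gene symbol equal to one of the 46. That gave 79 of the 45037 probe sets, for 44 of the 46 genes, out of 18193 genes with such a probe set. Isg15 is on the array only through a probe set shared with Gm9706, and Ifi44 had no probe set of its own, so neither has a value in the comparisons. Of the 44 genes, 35 were bright enough to test and 9 were not.

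The cells were 32Dcl3, an established mouse myeloid line that is kept in interleukin-3 (IL-3) and can be driven toward neutrophils with granulocyte colony-stimulating factor (G-CSF). They had been transduced with pMYs-IG (called mock) or with pMYs-FLAG-ASXL1-MT-IG, which adds a FLAG-tagged mutant of the chromatin regulator ASXL1 (called ASXL1-MT). For each of the 2 vectors there is 1 Affymetrix mouse array of cells treated with IL-3 and 1 each of cells given G-CSF for 2, 6 and 24 h, 8 arrays in all. All 8 share the line and the vector backbone, and both sides of every comparison are bulk RNA. No separate IL-3 array accompanies each G-CSF time, so time in culture and G-CSF cannot be told apart in the differences from IL-3. The labels do not say whether the ASXL1 insert is mouse or human, whether IL-3 was withdrawn, or whether the time points came from separate cultures. The p-values may thus not measure a spread between independent cultures. In the fit of time and vector, the spread is how far the 2 vectors depart from a shared time course. Technical spread and real differences between the vectors cannot be told apart in it. In bulk RNA, fewer cells of a type and less RNA per cell cannot be told apart.

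Type I interferons bind the receptor pair Ifnar1 and Ifnar2, and interferon-gamma binds Ifngr1 and Ifngr2. Receptor-bound Janus kinases then phosphorylate STAT proteins. Complexes that hold Stat2 and Irf9 bind the interferon-stimulated response element (ISRE) in target promoters, while STAT dimers bind the shorter gamma-activated sequence (GAS). IRFs bind ISRE-like sites too, Irf1 and Irf2 mostly as activator and repressor. The targets block viral entry, replication and translation, or load peptides on major histocompatibility complex (MHC) class I. In myeloid cells several of these genes are also expressed without added interferon, and Irf8 is a lineage factor of monocytes and dendritic cells.

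Promoter stretches of 9 genes are shown that hold the core letters of the elements named above, the later ones taken from genes that rose in G-CSF. RefSeq promoters (GRCm38.p6, from 250 bases before to 50 after a start) were matched by symbol for 37 of the 46 genes. GAAANNGAAA, the core of the ISRE, was searched on both strands and was found in 15 of the 37, against 3.44% of the 32851 promoters and 3.99% of the 27025 genes in the table. TTCNNNGAA, which reads the same on both strands and is the GAS core, was found in 13 of the 37, against 8.3% of promoters and 9.55% of genes. Both were found in 4, and in Bst2 and Ifitm3 the matches of the 2 motifs overlapped. A match describes letters and is not a measured binding site. Genes not called at 24 h and not shown also hold matches before the start: GAAANNGAAA in Stat2, Rsad2, Bst2, Gbp2 and Cxcl10. TTCNNNGAA lies before the start in uncalled Irf8, Bst2 and Samhd1. The stretches shown thus say nothing of a link between a motif and a rise. Capitals mark the matched motif in a sequence written 5′ to 3′ on the strand of the gene, where a match of the other strand shows as its reverse complement; in Irf2 a TTCNNNGAA at the end of the stretch is left in lower case. The first 3 genes are classical interferon targets of which Ifit3 did not pass at any time, Ifit1 was too dim to test and Isg15 had no probe set of its own; they lie at chr19:34640769-34640829 (Ifit1, plus strand), chr19:34583357-34583432 (Ifit3, plus) and chr4:156200859-156200912 (Isg15, minus). The next 3 carry GAAANNGAAA before the start and rose in G-CSF; they lie at chr2:122147532-122147573 (B2m, plus), chr8:46739495-46739529 (Irf2, plus) and chr7:140955982-140956023 (Ifitm2, minus). The last 3 carry TTCNNNGAA before the start and rose; they lie at chr11:53769908-53769948 (Irf1, plus), chr7:78913335-78913375 (Isg20, plus) and chr16:91372553-91372593 (Ifnar2, plus).
Ifit1: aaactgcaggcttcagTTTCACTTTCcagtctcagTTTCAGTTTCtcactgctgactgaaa
Ifit3: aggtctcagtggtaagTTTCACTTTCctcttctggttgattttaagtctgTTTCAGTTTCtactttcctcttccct
Isg15: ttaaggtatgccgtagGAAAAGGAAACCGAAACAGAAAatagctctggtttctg
B2m: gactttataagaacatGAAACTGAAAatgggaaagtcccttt
Irf2: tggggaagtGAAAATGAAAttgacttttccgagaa
Ifitm2: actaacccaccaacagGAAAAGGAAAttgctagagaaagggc
Irf1: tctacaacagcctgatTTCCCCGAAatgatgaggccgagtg
Isg20: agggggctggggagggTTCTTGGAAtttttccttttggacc
Ifnar2: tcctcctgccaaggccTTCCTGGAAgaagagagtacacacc
Ifit1, Ifit3 and Isg15 hold more than 1 match of GAAANNGAAA, and B2m, Irf2 and Ifitm2 hold a single one.

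The deposited values are centred: each probe set's median over the 8 arrays is 0, so a value says how far an array lies from that gene's own median on a log2 scale. The level of a gene was estimated separately, from the rounding of its numbers, and levels of 8 or more are not resolved further. A gene was tested where its second-highest array reached 6.23, the median level of the table. That kept 13031 genes, and 30 of the 35 tested interferon genes reached it at their own median; Dhx58, Ifit3, Rsad2, Gbp2 and Cxcl10 passed only through their higher arrays. Of the markers of the line's own stage, Mpo, Elane, Prtn3, Ctsg and Ms4a3 were at a level of 8 or more, and Cd34 and Kit were under the filter. Asxl1 has 3 probe sets; the ASXL1-MT arrays were below mock at all 4 time points in 2 of them and above in 1, and with the species of the insert unknown this does not check the labels. Across the 79 probe sets of the interferon genes, the 37 at a level of 8 or more had a median standard deviation (SD) over the 8 arrays of 0.364, and the 42 below it had 0.891. The arrays of dim genes were thus spread more widely than those of bright ones, as the plot of spread against level shows.

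**Figure D1:**
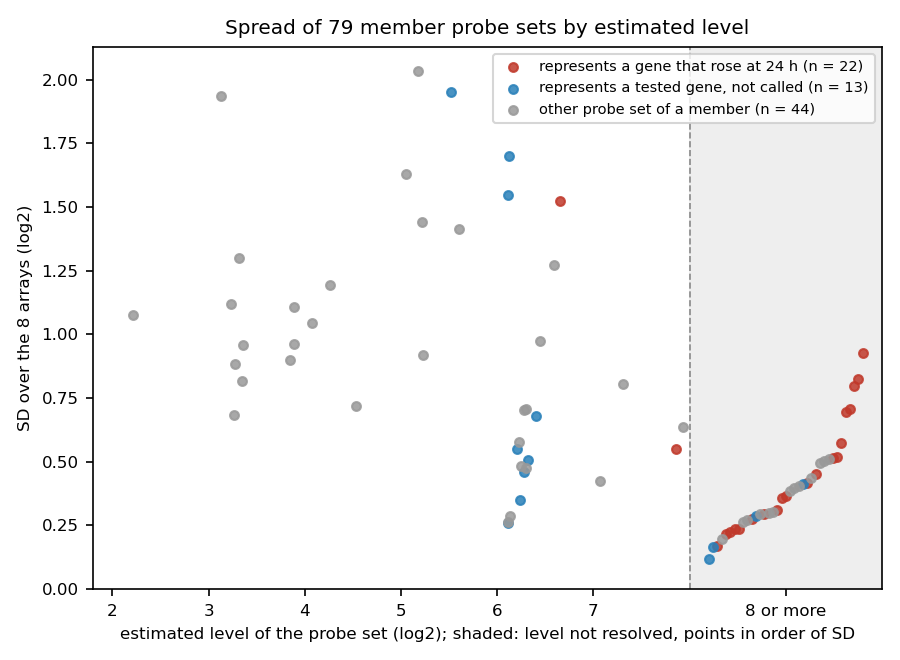
SD over the 8 arrays (log2) of each of the 79 probe sets against its estimated level (log2; from 8 upward the level is not resolved and points are placed in order of SD). Red points represent the 22 genes that rose at 24 h in G-CSF, blue points the 13 tested genes that were not called, grey points all other probe sets of the same genes; 20 of the 22 red points lie at a level of 8 or more.

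How the cells' interferon genes respond to G-CSF is asked first at 24 h. After 24 h, 22 of the 35 tested genes (62.9%) rose against IL-3 and 0 fell, where 14.7% of all 13031 tested genes rose and 11.8% fell (26.6% in either direction). The largest rises were in Xaf1, Ifngr1, Isg20, Ifitm2, Parp9, Irf2 and Irf1, and 11 of the 22 rose at least 2-fold. The median difference of the 35 was 0.62 on the log2 scale, against 0.09 for all tested genes. These calls are from limma, adjusted over all 13031 genes by Benjamini-Hochberg at a false discovery rate (FDR) of 0.05; at an unadjusted p under 0.05 the count was 24, all of them higher at 24 h, where 5210 of the 13031 genes reached that p in either direction. Among the 24 tested genes at a level of 8 or more 20 rose, against 18.9% of all genes at such a level. Among the 11 dimmer ones 2 rose (Irf2 and Xaf1), against 8.97%. Both 24 h arrays lay above both IL-3 arrays in 25 of the 35, where 37.2% of all tested genes do so. They lay below in 2, Dhx58 and Ifi35, where 28.5% do so.

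In the same comparison 6 of 8 tested markers of mature neutrophils rose (log2 differences of all 8 from 1.00 to 4.95), as did 5 of 5 tested markers of neutrophil progenitors (0.49 to 2.26) and 3 of 4 of monocytes and macrophages (-0.10 to 4.58). None of the 5 tested dendritic cell markers (0.25 to 1.49) and none of the 3 lymphoid markers (0.39 to 4.64) passed in limma, with 1 of each list at an unadjusted p under 0.05. Siglech, which marks plasmacytoid dendritic cells, was under the filter. Ccr2 of the monocyte list (4.58) and Cd3d of the lymphoid list (4.64) passed the filter only with their 24 h arrays counted. So did Camp and Mmp9 of the mature neutrophil list, which were not called. The call of Ccr2 and the sizes of these differences are thus not independent of the filter. Levels of these lists cannot be summed from centred values. The part of these cell stages in the rise of the interferon genes was not tested. With the mock or the ASXL1-MT array of IL-3 or of 24 h left out, 0 of the 35 and 0 of all 13031 genes passed, in a fit that assumes the lone array to vary like the others. With either array of 6 h left out 11 of the 22 passed, where 16.5% of all genes did, and none of the 22 changed direction in any of the 8 omissions.

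**Figure D2:**
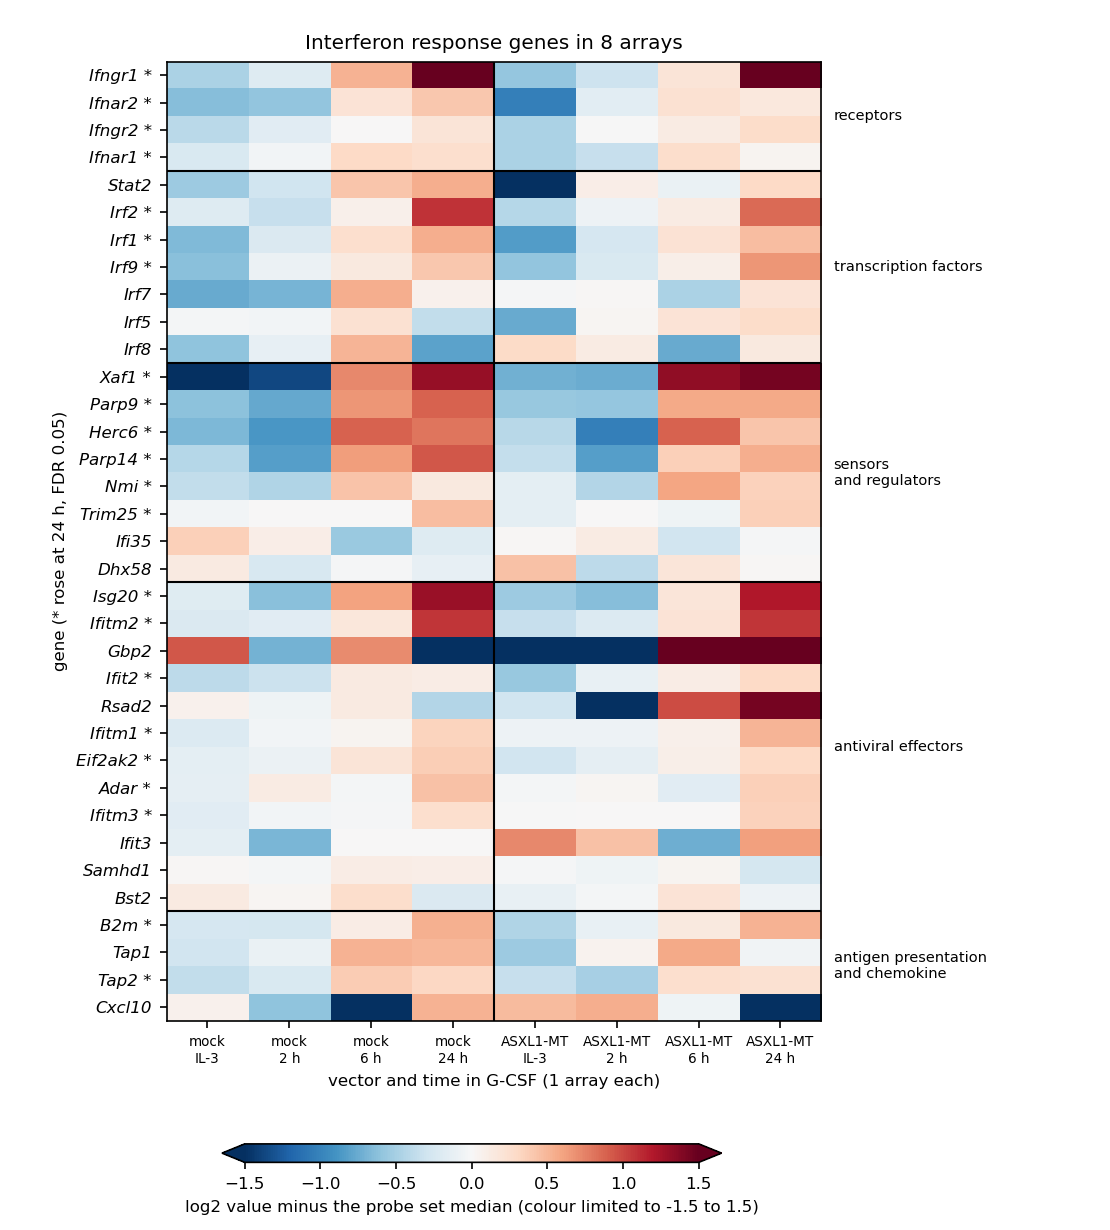
Log2 value of each of the 35 tested genes in each of the 8 arrays, minus the median of its probe set (colour, limited to -1.5 to 1.5), by role; columns are vector and time in G-CSF, 1 array each. A star marks the 22 genes that rose at 24 h; the change from blue in IL-3 to red at 24 h runs through both vectors, and Gbp2, Rsad2 and Cxcl10 show single arrays far from the rest.

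All 4 receptor chains rose at 24 h. Ifngr1, the ligand-binding chain of the interferon-gamma receptor, read -0.48, -0.19, 0.52 and 1.87 in mock cells with IL-3 and at 2, 6 and 24 h of G-CSF. In ASXL1-MT cells it read -0.58, -0.31, 0.19 and 1.54 in the same order. Both series climbed at every step and the 24 h arrays stood apart from all 6 others. The difference between 24 h and IL-3 was 2.23 ± 0.11 (standard error, adjusted p = 0.0057 by limma), or 4.69-fold. Each side held 1 mock and 1 ASXL1-MT array, which are not replicates. Ifnar2, the chain that docks the kinase Jak1 in the type I receptor, read -0.64, -0.59, 0.20 and 0.41 in mock cells and -1.02, -0.16, 0.23 and 0.16 in ASXL1-MT cells. Its rise was 1.12 ± 0.23 (adjusted p = 0.0341), and its 3 probe sets gave 1.05 to 1.18. Ifnar1, the partner chain that docks Tyk2, rose by 0.50 ± 0.10 (adjusted p = 0.0331), and its mean over both probe sets did not pass (0.49, adjusted p = 0.208). Ifngr2, the signalling chain of the interferon-gamma receptor, rose by 0.68 ± 0.09 in its bright probe set. Its other, dimmer probe set gave -0.23, and the mean of both did not pass (0.23, adjusted p = 0.245).

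Of the 7 transcription factors, Irf1, Irf2 and Irf9 rose at 24 h. Irf1, which activates MHC class I and many interferon-gamma targets, read -0.66, -0.22, 0.25 and 0.54 in mock cells and -0.84, -0.25, 0.22 and 0.46 in ASXL1-MT cells. The vectors ran almost on top of each other and rose at each step, so that no G-CSF array overlapped IL-3; the rise at 24 h was 1.25 ± 0.09 (adjusted p = 0.0066). Irf2, which competes with Irf1 for its sites, read -0.19, -0.35, 0.08 and 1.08 in mock cells and -0.43, -0.08, 0.12 and 0.85 in ASXL1-MT cells. Its arrays up to 6 h lay close together and only the 24 h arrays stood out, with a rise of 1.28 ± 0.16 (adjusted p = 0.0130). Irf9, the DNA-binding part of the type I interferon complex, read -0.63, -0.09, 0.15 and 0.41 in mock cells and -0.59, -0.23, 0.09 and 0.66 in ASXL1-MT cells. It was lowest in IL-3 and highest at 24 h in both vectors, with a rise of 1.15 ± 0.12 (adjusted p = 0.0101).

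The factor Stat2, Irf9's partner, read -0.54, -0.30, 0.42 and 0.54 in mock cells and -1.56, 0.10, -0.10 and 0.30 in ASXL1-MT cells. Its difference of 1.47 ± 0.36 missed the threshold (adjusted p = 0.0525) with the groups not overlapping, and it passed as the mean of both probe sets (1.47, adjusted p = 0.0372). Irf7, the amplifier of type I interferon transcription, differed by 0.52 ± 0.50 and Irf5, which acts below Toll-like receptors, by 0.34 ± 0.34. Irf8 differed by -0.17 ± 0.62. For these 3 the estimated level lay between 6.23 and 6.32, next to the filter, and the 95% intervals of the differences (-0.84 to 1.88, -0.60 to 1.28 and -1.88 to 1.54) leave a change of 2-fold possible in at least one direction.

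Among the 8 tested sensors and regulators 6 rose. Xaf1, an interferon-inducible promoter of cell death, read -2.70, -1.36, 0.72 and 1.31 in mock cells and -0.72, -0.75, 1.33 and 1.44 in ASXL1-MT cells. The arrays in IL-3 and at 2 h were all below 0 and those at 6 and 24 h all above it, and the IL-3 arrays were far apart. The rise was 3.09 ± 0.48 (adjusted p = 0.0194); without any single array it did not pass, at 2.32 to 3.85. Its second probe set, of similar level, gave 0.31, and the mean of both gave 1.70 with an adjusted p of 0.085. Parp9 and Parp14, ADP-ribosyltransferases that modulate STAT signalling, rose by 1.31 ± 0.15 (adjusted p = 0.0108) and 1.13 ± 0.15 (adjusted p = 0.0150). A second, dimmer probe set of Parp14 gave 2.30 ± 0.71 in the fit of every probe set and did not pass there. Parp9 read -0.61, -0.77, 0.66 and 0.88 in mock cells and -0.57, -0.58, 0.57 and 0.57 in ASXL1-MT cells. Parp14 read -0.43, -0.83, 0.63 and 0.93 in mock cells and -0.36, -0.83, 0.36 and 0.54 in ASXL1-MT cells. Both genes fell into a low pair of times, IL-3 and 2 h, and a high pair, 6 and 24 h, with no overlap.

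Herc6, the mouse ligase for the ubiquitin-like modifier Isg15, read -0.67, -0.87, 0.88 and 0.80 in mock cells and -0.42, -1.02, 0.89 and 0.42 in ASXL1-MT cells. It was highest at 6 h in both vectors. The rise at 24 h was 1.15 ± 0.18 (adjusted p = 0.0182), and its 4 probe sets ran from 0.49 to 1.18. Nmi, a STAT-interacting adaptor, rose by 0.51 ± 0.10 and Trim25, the ubiquitin ligase of the RNA sensor pathway, by 0.50 ± 0.08. Ifi35, the partner of Nmi, did not pass with its representative probe set (-0.30 ± 0.18, adjusted p = 0.292). All 3 of its probe sets were lower at 24 h, by -1.01 at the most, and their mean passed as a fall (-0.63, adjusted p = 0.0294). Dhx58, which encodes the RNA sensor LGP2, differed by -0.35 ± 0.14 (adjusted p = 0.148), while its 2 dimmer probe sets gave positive differences of up to 2.45.

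**Figure D3:**
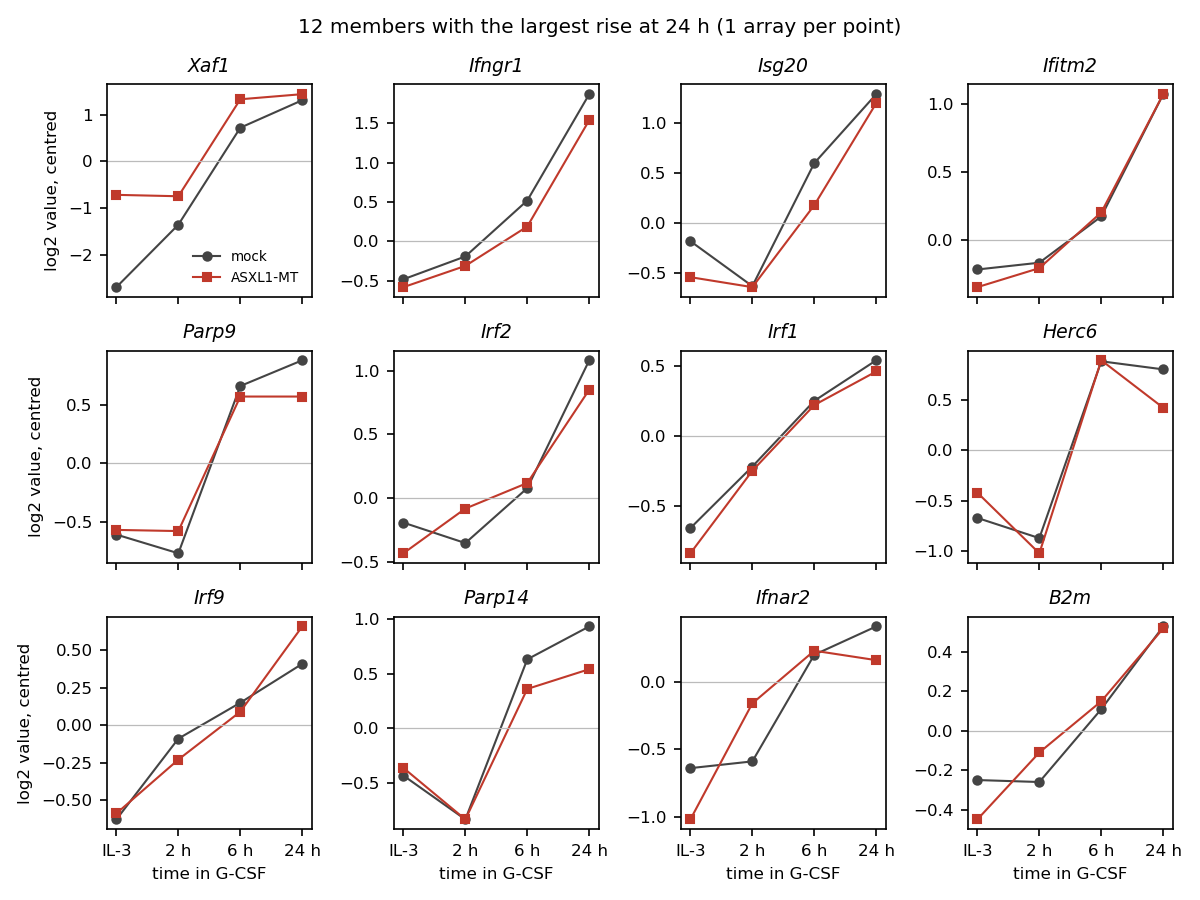
Log2 value (centred on the probe set's median) with IL-3 and at 2, 6 and 24 h of G-CSF for the 12 genes with the largest rise at 24 h, mock in dark grey and ASXL1-MT in red, 1 array per point; each panel has its own axis. Ifngr1 and Ifitm2 go from 0.52 and 0.17 at 6 h to 1.87 and 1.07 at 24 h in mock cells, whereas Herc6 is already at 0.88 at 6 h.

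Of the 12 tested antiviral effectors 7 rose. Isg20, an exonuclease that degrades viral RNA, read -0.18, -0.63, 0.60 and 1.29 in mock cells and -0.54, -0.64, 0.18 and 1.20 in ASXL1-MT cells. It was lowest at 2 h in both vectors and highest at 24 h, with a rise of 1.61 ± 0.14 (adjusted p = 0.0079). Ifitm2, a membrane protein that blocks virus entry, read -0.22, -0.17, 0.17 and 1.07 in mock cells and -0.35, -0.21, 0.20 and 1.07 in ASXL1-MT cells. The 24 h arrays matched each other and stood apart from the rest, and the rise was 1.35 ± 0.08 (adjusted p = 0.0060). Its relatives Ifitm1 and Ifitm3 rose by 0.56 ± 0.09 (adjusted p = 0.0229) and 0.39 ± 0.08 (adjusted p = 0.0377). With arrays centred on their medians the rise of Ifitm3 did not pass (0.30, adjusted p = 0.0733).

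The other effectors that passed had smaller differences. Ifit2, which binds viral RNA, rose by 0.69 ± 0.13, Eif2ak2, which encodes the double-stranded RNA kinase PKR, by 0.55 ± 0.08, and Adar, the RNA-editing deaminase, by 0.48 ± 0.10. With arrays centred on their medians Adar did not pass (0.40, adjusted p = 0.0601). After another quantile normalization Adar, Ifitm3, Ifnar1, Ifnar2, Herc6 and Parp14 did not pass. Samhd1, a nucleotide hydrolase, differed by -0.08 ± 0.12 and Bst2, the virion tether known as tetherin, by -0.16 ± 0.12. Their 95% intervals (-0.41 to 0.24 and -0.48 to 0.17) hold no 2-fold change in either direction for these representative probe sets. The 5 probe sets of Samhd1 disagreed, from -0.643 to 1.70, the highest being a dimmer one (1.70 ± 0.69). Ifit3, Rsad2 and Gbp2 differed by 0.02 ± 0.50, 0.62 ± 1.57 and 0.80 ± 1.87, with errors too wide to give a direction.

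Of the 4 genes of antigen presentation and chemokine signalling 2 rose. B2m, the invariant chain of MHC class I, rose by 0.88 ± 0.12 (adjusted p = 0.0142), with both probe sets between 0.88 and 0.95. Tap2, a subunit of the peptide transporter of the endoplasmic reticulum, rose by 0.62 ± 0.10 (adjusted p = 0.0224). Tap1, its partner subunit, differed by 0.64 ± 0.20 and did not pass (adjusted p = 0.0935). Cxcl10, a chemokine that attracts T cells, read 0.07, -0.60, -3.41 and 0.52 in mock cells and 0.48, 0.55, -0.07 and -2.69 in ASXL1-MT cells. One array in each vector was far below the rest, at different times, and its difference was -1.36 ± 1.64.

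The 9 genes that were on the array but under the filter include several of the best known interferon targets: Ifit1, Oasl2, Mx1, Mx2, Usp18, Zbp1, Rtp4, Gbp3 and Ifih1. Their representative probe sets had estimated levels from 3.12 to 5.23. Ifit1 read -0.26, 1.00, 0.26 and 1.29 in mock cells and -0.95, -1.07, 1.29 and -0.34 in ASXL1-MT cells. Mx1, an antiviral GTPase, read -1.37, -0.76, -0.31 and 0.60 in mock cells and 0.47, 0.72, -0.13 and 0.13 in ASXL1-MT cells. In both genes the IL-3 and 24 h arrays overlapped, and the vectors did not follow the same course. In Usp18, Oasl2 and Gbp3 both 24 h arrays lay above both IL-3 arrays, and in Ifih1 both lay below. Among all tested genes, which leave these 9 out, 37.2% lay above and 28.5% below. With every probe set tested, Usp18, Oasl2 and Gbp3 differed at 24 h by 1.41 ± 0.71, 1.49 ± 0.76 and 1.44 ± 0.85. Ifih1 differed by -1.24 ± 1.63. None of the 4 passed there (adjusted p = 0.344, 0.346, 0.413 and 0.72, limma).

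At 6 h, which asks how early the response is seen, 14 of the 35 tested genes (40%) rose against IL-3 and 0 fell, where 9.89% of all tested genes rose and 7.31% fell (17.2% in either direction; limma, FDR 0.05). Of the 24 genes at a level of 8 or more 13 rose, against 12.7% of all genes at such a level, and of the 11 dimmer ones 1 rose, against 5.98%. At an unadjusted p under 0.05 the count was 20, of which 1 (Ifi35, -0.62 ± 0.18) was lower at 6 h, where 4464 of the 13031 genes reached that p. As the mean of its 3 probe sets Ifi35 passed as a fall (-0.74, adjusted p = 0.031). Both 6 h arrays lay above both IL-3 arrays in 25 of 35, where 38.3% of all tested genes do so, and below in 2 (Cxcl10 and Ifi35), where 24.8% do so. In all, 13 genes passed at both 6 and 24 h, which share the IL-3 arrays, and Tap1 passed at 6 h alone. With an array of IL-3 or of 6 h left out, 1 side of the comparison was a lone array, and no calls are read from it. With any single array of 2 h left out 3 of the 14 passed, where 4.56% of all tested genes did. With any single array of 24 h left out 3 of the 14 passed too, where 4.47% did. As the mean of all probe sets Tap1, Xaf1, Parp14, Ifnar1, Ifngr2 and Ifitm2 did not pass; with arrays centred on their medians Isg20, Tap1 and Ifngr2 did not (adjusted p = 0.0547, 0.0606 and 0.0528), and after another quantile normalization Isg20 and Parp14 did not (0.0511 and 0.0912). At 6 h 2 of 5 tested neutrophil progenitor markers, 2 of 8 mature neutrophil markers and 1 of 2 fibroblast markers rose, and none of 4 monocyte, 5 dendritic and 3 lymphoid markers did (1, 0 and 1 at an unadjusted p under 0.05); their part in the result was not tested.

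The genes with the largest rise at 6 h were Xaf1 (2.74 ± 0.48, adjusted p = 0.0351), Herc6 (1.42 ± 0.18, adjusted p = 0.0189) and Parp9 (1.20 ± 0.15, adjusted p = 0.0188). Irf1 rose by 0.98 ± 0.09 (adjusted p = 0.0125), Parp14 by 0.89 ± 0.15, Ifngr1 by 0.88 ± 0.11, Isg20 by 0.76 ± 0.14 and Irf9 by 0.73 ± 0.12. Nmi read -0.37, -0.45, 0.43 and 0.15 in mock cells and -0.15, -0.44, 0.59 and 0.35 in ASXL1-MT cells, highest at 6 h in both; it rose by 0.77 ± 0.10. Tap1 read -0.29, -0.10, 0.52 and 0.50 in mock cells and -0.54, 0.05, 0.57 and -0.05 in ASXL1-MT cells. Its 6 h arrays agreed and its 24 h arrays did not, and it rose at 6 h by 0.96 ± 0.20 (adjusted p = 0.0493). The mean of its 4 probe sets did not pass at 6 h (1.21, adjusted p = 0.21). Tap2, Ifnar1, Ifngr2 and Ifitm2 rose by 0.67 ± 0.10, 0.63 ± 0.10, 0.51 ± 0.09 and 0.47 ± 0.08. By role, 3 of 4 receptors, 2 of 7 transcription factors, 5 of 8 sensors and regulators, 2 of 12 effectors and 2 of 4 genes of antigen presentation and chemokine rose at 6 h.

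**Figure D4:**
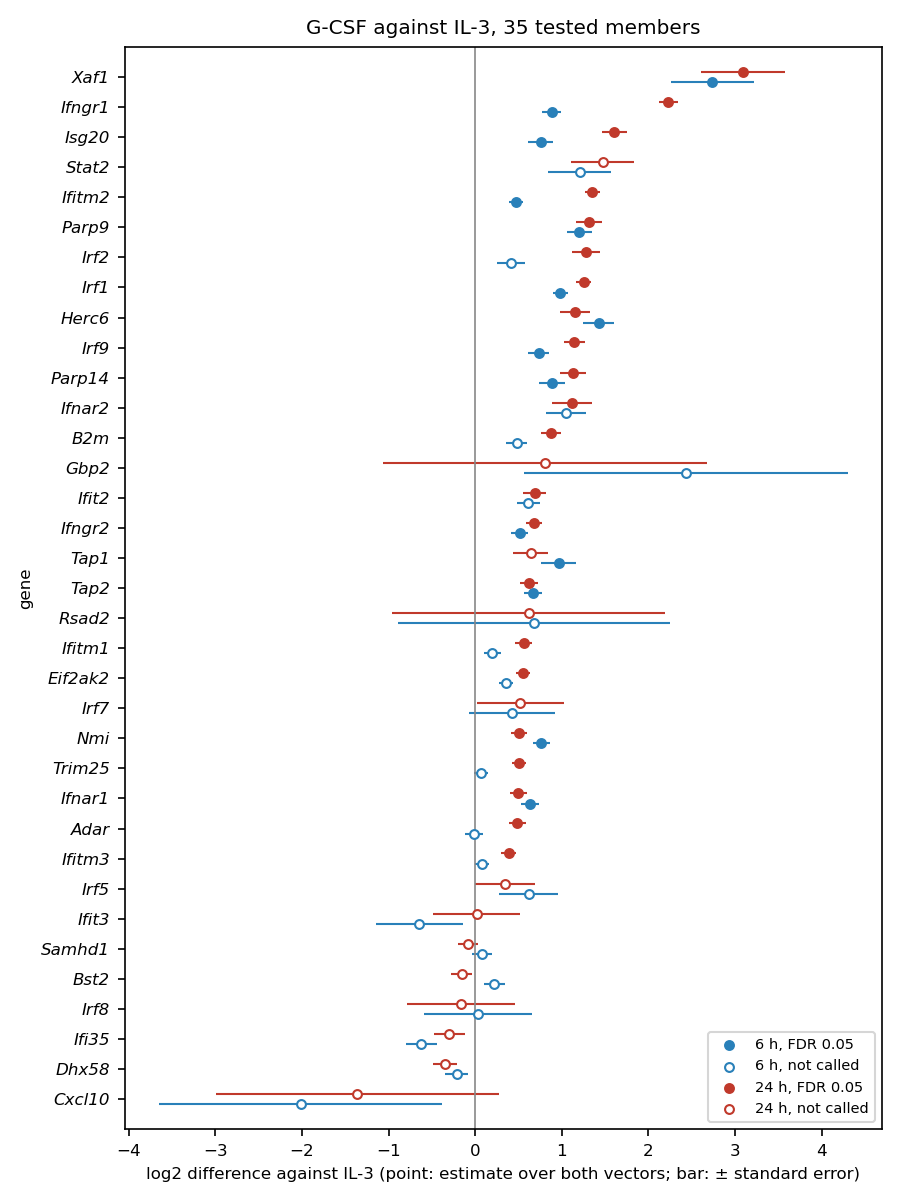
Log2 difference from IL-3 at 6 h (blue) and 24 h (red) for the 35 tested genes, with the standard error of limma as bar; filled points passed an FDR of 0.05. Xaf1 lies near 3 at both times, Ifngr1 goes from 0.88 to 2.23 and Ifitm2 from 0.47 to 1.35, and the bars of Gbp2, Rsad2 and Cxcl10 are the widest.

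Between 6 and 24 h, 2 of the 35 rose further and 0 fell, where 3.12% of all tested genes rose and 2.7% fell (5.82% in either direction). At an unadjusted p under 0.05 the count was 12, of which 1 (Bst2) was lower at 24 h, where 3589 of the 13031 genes reached that p. Ifngr1 was higher at 24 h than at 6 h by 1.35 ± 0.11 (adjusted p = 0.0279) and Ifitm2 by 0.88 ± 0.08 (adjusted p = 0.0311). Neither passed after another quantile normalization (0.74, adjusted p = 0.0718, and 0.63, adjusted p = 0.0713), nor with any of the 8 arrays left out, where 0 of all genes passed. Isg20 (0.85 ± 0.14, adjusted p = 0.0512) and Irf2 (0.86 ± 0.16, adjusted p = 0.0609) came next in size among the genes higher at 24 h, and both had 24 h arrays above the 6 h arrays with no overlap. The largest difference in size was that of Gbp2, a guanylate-binding GTPase, at -1.63 ± 1.87 (adjusted p = 0.637). It read 0.93, -0.71, 0.71 and -1.56 in mock cells and -2.45, -2.66, 2.63 and 1.64 in ASXL1-MT cells. That range was wider than that of any tested interferon gene at a level of 8 or more. With the stricter filter on dim genes 11 of the 25 then tested passed, of which 10 rose and 1 (Bst2, -0.38) fell. That filter raises calls over all genes too: at 6 h against IL-3 it took them from 17.2% to 45%. The share of all genes that this filter called between 6 and 24 h is not given here. The higher count is thus not read as a result about the interferon genes.

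At 2 h none of the 35 passed, where 0.00767% of all tested genes did (1 gene, which fell). At an unadjusted p under 0.05 there were 5, where 1051 of the 13031 genes reached that p. Of the 5, Irf1 (0.52 ± 0.09), Irf9 (0.45 ± 0.12) and Ifngr2 (0.35 ± 0.09) were higher and Dhx58 (-0.61 ± 0.14) and Parp14 (-0.44 ± 0.15) were lower. The smallest adjusted p of the 35 was 0.358, that of Irf1. The largest differences were those of Rsad2 (-2.02 ± 1.57), Stat2 (0.95 ± 0.36), Gbp2 (-0.92 ± 1.87), Xaf1 (0.66 ± 0.48) and Dhx58. Rsad2, which encodes the antiviral enzyme viperin, read 0.07, -0.07, 0.14 and -0.44 in mock cells and -0.30, -4.20, 0.98 and 1.44 in ASXL1-MT cells. Its difference at 2 h came from 1 array, the ASXL1-MT array at 2 h, without which it was 0.44. Dhx58 read 0.14, -0.24, -0.02 and -0.12 in mock cells and 0.44, -0.39, 0.18 and 0.02 in ASXL1-MT cells, lowest at 2 h in both. Both 2 h arrays lay above both IL-3 arrays in 12 of 35 and below in 6, where 18.8% and 20% of all tested genes do so. The 6 below included Isg20, Herc6, Nmi and Parp14, which were above at 6 h.

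The second question of the design is whether ASXL1-MT changes these genes. The 4 time points were taken in place of replicates. Over them, 0 of the 35 passed between ASXL1-MT and mock (limma, FDR 0.05), where 0% of all 13031 genes did. At an unadjusted p under 0.05 there were 2 of the 35 (Ifngr1, -0.22 ± 0.08, and Ifnar1, -0.20 ± 0.07), and 840 of all tested genes. The largest differences were in Xaf1 (0.83 ± 0.34, adjusted p = 0.778), Ifit3 (0.47), Rsad2 (-0.45), Cxcl10 (0.42) and Stat2 (-0.35). Ifit3, an RNA-binding partner of Ifit1, read -0.15, -0.69, 0.00 and 0.00 in mock cells and 0.72, 0.44, -0.73 and 0.61 in ASXL1-MT cells. ASXL1-MT was higher in Ifit3 at 3 of 4 time points and lower at 6 h. The median difference of the 35 genes was -0.04, and ASXL1-MT was higher in 13 of them.

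At each time point there is 1 array per vector and no test. From 27 to 29 of the 35 genes lay within 0.5 of each other in the 2 vectors at each time, as did 10020 to 10177 of all 13031 genes. In IL-3, Xaf1 was higher in ASXL1-MT cells by 1.98, and Gbp2 and Stat2 were lower by 1 or more on the log2 scale, where 5.99% of all genes were higher and 5.29% lower by that much. At 2 h Cxcl10 and Ifit3 were higher and Gbp2 and Rsad2 lower by that much, where 5.07% and 6.49% of all genes were. At 6 h Cxcl10 and Gbp2 were higher and Irf7 and Irf8 lower, where 6.94% and 4.66% were. At 24 h, Gbp2 and Rsad2 were higher and Cxcl10 lower by 1 or more, where 6.11% and 5.3% of all genes were. In the fit that asks whether the vector difference at 24 h departs from that at the other times, 0 of the 35 passed, where 0% of all 13031 did, and 1 of the 35 and 756 of all genes had an unadjusted p under 0.05. That 1 was Cxcl10 (-4.84 ± 1.41, adjusted p = 0.851). Gbp2 gave 4.34, Rsad2 3.10, Irf8 0.99 and Xaf1 -0.93. Irf8 read -0.60, -0.12, 0.51 and -0.80 in mock cells and 0.29, 0.12, -0.76 and 0.15 in ASXL1-MT cells, with no order by time shared by the vectors.

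**Figure D5:**
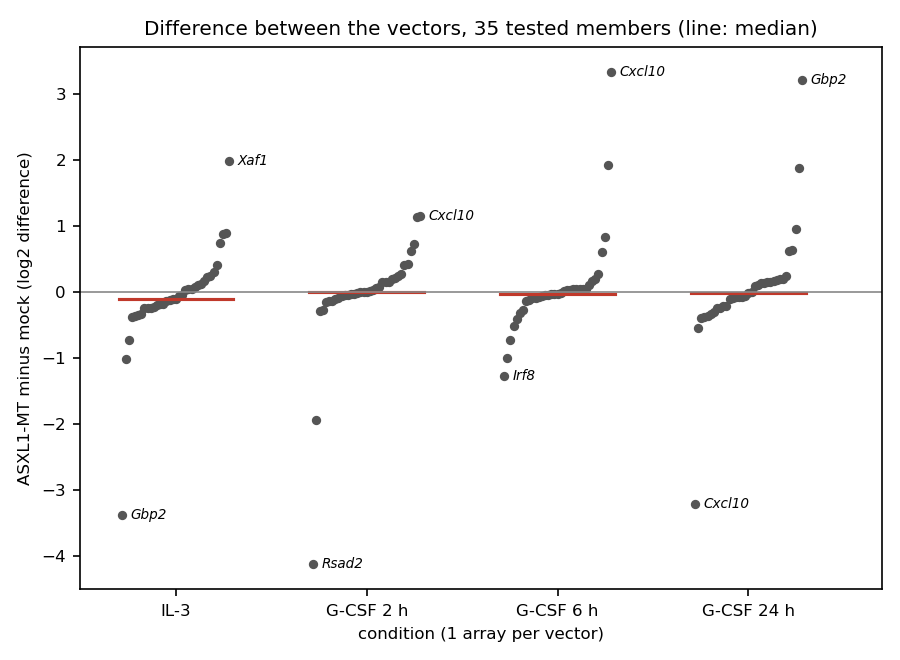
ASXL1-MT minus mock (log2 difference of 1 array each) for the 35 tested genes with IL-3 and at 2, 6 and 24 h of G-CSF, sorted within each condition; the red line is the median, and the lowest and highest gene are named. The medians lie between -0.104 and 0.0031, and the genes farthest from 0 are Gbp2, Rsad2, Cxcl10, Xaf1 and Irf8, all but Xaf1 and Irf8 with a level under the filter at their median.

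Other genes of the pathway were taken from lists of interferon signalling, ligands, further targets, GTPases, MHC class I and sensors. Of 13 tested signalling genes 6 rose and 1 fell at 24 h, where 14.7% of all tested genes rose and 11.8% fell. The largest were Socs3, the feedback inhibitor of cytokine receptors (3.07 ± 0.31), Stat3, the main STAT of the G-CSF receptor (1.99 ± 0.09), and Il10rb, a chain of the type III interferon receptor (1.15 ± 0.12); Ptpn2, a phosphatase of Janus kinases and STATs, fell by 0.62 ± 0.08. Of the 16 interferon ligand genes listed, 9 were on the array and 4 were tested. None of the 4 passed at 24 h in limma (1 at an unadjusted p under 0.05). Ifnz alone rose at 6 h (1.21 ± 0.25, adjusted p = 0.0472, limma), where 9.89% of all tested genes rose. Ifnb1, the interferon-beta gene, read 0.09, -1.26, 0.10 and 0.21 in mock cells and -0.12, 0.03, -0.11 and -0.03 in ASXL1-MT cells at an estimated level of 6.29, and its 24 h and IL-3 arrays overlapped.

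Of 45 further tested targets of type I interferon 15 rose and 1 fell at 24 h. Of all tested genes 14.7% rose and 11.8% fell, the shares to set beside each list here. The rises were led by Trim30a (2.06 ± 0.15), a regulator of innate signalling, Sp100, a nuclear body protein (1.91 ± 0.16), and Ifi27l2a (1.44 ± 0.26). Slfn3 was the gene that fell (-1.34 ± 0.14). Among 6 tested GTPases that interferon-gamma induces, 3 rose and 1 fell: Irgm2 (1.40 ± 0.18), Igtp (0.74 ± 0.13) and Irgm1 (0.71 ± 0.10) rose, and Ifi47 fell (-1.41 ± 0.16). Of 14 tested genes of MHC class I and the immunoproteasome 5 rose and 0 fell (7 at an unadjusted p under 0.05), led by Tapbp, the peptide-loading chaperone tapasin (1.27 ± 0.10), Psmb9, an immunoproteasome subunit (1.09 ± 0.09), and Nlrc5, a transactivator of class I genes (0.80 ± 0.09). Of 11 further tested sensors and adaptors 5 rose and 1 fell, led by the kinase Ikbke (2.17 ± 0.27), the Toll-like receptor chaperone Unc93b1 (1.47 ± 0.10) and Sting1 (1.13 ± 0.12), while the adaptor Mavs fell by 0.41 ± 0.10. The median differences of these lists at 24 h were 0.42, 0.54, 0.43, 0.62, 0.34 and 0.35 in the order given, against 0.09 for all tested genes. Nlrc5 and Ifi27l2a, at estimated levels of 6.06 and 6.14, passed the filter only with their 24 h arrays counted. Their calls as rises at 24 h are thus not independent of the filter.

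The promoter matches were set beside the calls at 24 h. Of the 19 genes that rose at 24 h and had a promoter, 5 held GAAANNGAAA and 9 held TTCNNNGAA. Of the 12 tested genes with a promoter that were not called, 6 held GAAANNGAAA and 4 held TTCNNNGAA. Of the 4 with a promoter that were too dim to test, 3 held GAAANNGAAA and 0 held TTCNNNGAA. Among all tested genes with a promoter, 3.64% held GAAANNGAAA and 8.5% held TTCNNNGAA. In counts, GAAANNGAAA was no more frequent among genes that rose than among those that did not, while TTCNNNGAA was more frequent. These small counts were not tested for either motif.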

How the data were processed

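Expression was measured on 8 Affymetrix mouse arrays, 1 per condition. The authors deposited 1 table of values that were taken as log2 expression minus each probe set's median; every median lay within 5e-07 of 0. Scanner intensities came from MAS 5.0 software, per the labels, and RMA, with no version, appears in the submitters' processing notes. For the log base and the centring no statement is given in the sources used; if the values are natural logs, log2 differences would be 1.44 times larger. Array number limits the precision.

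Levels were estimated from the rounding step of the deposited numbers, a step chosen after seeing the data that departs from the design, which assumed uncentred values. Probe sets with 1 gene symbol numbered 34945, with several 932 and with none 9160. The probe set of the highest estimated level stood for each of 18193 genes; levels of 8 or more tie, and ties were broken by probe set type and then identifier. limma 3.58.1 in R 4.3.3 (lmFit, eBayes) modelled vector and time additively (3 residual degrees of freedom; 2 once a 24 h indicator was added), with two-sided tests and the model's standard errors, and was tested on simulated data. Tables and plots were made with Python 3.11.15, pandas 2.3.3 and matplotlib 3.10.9.

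The genes and lists were chosen with earlier results of these data known. By rule every passing gene was named, with array values for the 10 of largest change; where fewer than 5 passed, the 5 of largest change were named. Of the other pathway lists the 3 passing genes of largest change at 24 h were named; further ones were named after their values were seen. Alternatives were the mean of all probe sets, no filter or a stricter filter (70th percentile, 7777 genes), centring, another quantile normalization, a prior trend, 1 factor alone, every probe set, and each array left out.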

Additional observations from a re-analysis of the deposited data

How the results depend on the processing

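The 24 h and 6 h counts (22 and 14 genes) kept within 1.5 times in 6 settings (16 to 23 and 10 to 19). These were the mean of all probe sets, array centring, another quantile normalization, the stricter filter, a prior trend and 1 factor alone. As the mean of all probe sets, 4 of the 22 genes called at 24 h did not pass. The counts hold either direction: at 6 h Ifi35 passed as a fall under the mean, the stricter filter and the prior trend. Over the same settings the share of all genes called at 6 h ran from 11.5% (mean) to 45% (stricter filter), so the base rate moved too. With no filter on dim genes 12 passed at 24 h and 1 at 6 h (Irf1), where 3.11% of all 18193 genes passed at 6 h. With every probe set tested 2 genes passed at 24 h (Ifngr1 and Ifitm2) and 0 at 6 h, where 0 of all 45037 probe sets passed at 6 h. Shares of all genes in these settings are given for 6 h only. Moves in the counts at 24 h and between 6 and 24 h are thus not read as results about the interferon genes. Without 1 array, 0 to 18 passed at 24 h, 0 to 3 at 6 h and 0 to 0 between 6 and 24 h, with 2 residual degrees of freedom. The count between 6 and 24 h, 2, was 0 with no filter, 11 with the stricter filter, 0 after quantile normalization, 8 with a prior trend, 5 with 1 factor alone and 0 with every probe set. The counts of 0 at 2 h and for both vector tests stayed 0 in every setting run; the 24 h indicator could not be fitted without a 24 h array. No called gene changed direction. Uncalled differences that reversed were, at 2 h, Rsad2 (0.44 without the ASXL1-MT 2 h array; -4.47 to 0.44 without 1 array), Gbp2 (0.34 without that array, 1.30 without mock IL-3; -3.14 to 1.30), Xaf1 (-0.11 without mock IL-3; -0.11 to 1.42) and Dhx58 (0.06 as the mean of probe sets); between 6 and 24 h, Gbp2 (0.54 without mock 24 h, -3.80 to 0.54); between the vectors, Rsad2 (0.78 without either 2 h array, -1.22 to 0.78) and Cxcl10 (-0.56 without either 6 h array, -0.56 to 1.63); and for the 24 h indicator, Irf8 (-0.66 as the mean of probe sets). The cause was not tested. The fit holds the vector as a term, and 1 factor alone is the fit without it; no replicate block beyond that could be formed, since the labels carry no replicate numbers. The number of arrays limits all calls, and low signal limits those of dim genes.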

Other observations

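Isg15, a ubiquitin-like protein that is attached to targets during an interferon response, is represented only by a probe set shared with Gm9706. That probe set read -0.55, -0.193, -0.182 and 0.434 in mock cells and -0.02, 0.02, 0.224 and 0.329 in ASXL1-MT cells with IL-3 and at 2, 6 and 24 h of G-CSF. Both vectors were lowest in IL-3 and highest at 24 h. The difference at 24 h was 0.667 ± 0.21 and did not pass in limma over every probe set (adjusted p = 0.175). The 2 genes cannot be told apart in it.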
